A study of Homo sapiens with 18 samples.

Results

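The ETS factors SPI1 (PU.1), SPIB, ETS1, FLI1, ETV6 and ELF1 are 6 transcription factor genes of the B lineage, described here by the accessibility of the chromatin in and around them. Their peaks were those whose centre lay inside the gene on GRCh38, or, where the centre lay in no protein-coding gene, those for which the gene was the nearest within 50 kb. This gave 101 of 71318 peaks, of which 84 lay inside a gene and 17 outside. ETS1 and ETV6 had 28 peaks each, FLI1 had 20, ELF1 18, SPI1 5 and SPIB 2. The assay was Omni-ATAC-seq, which tags open DNA with a transposase before sequencing, and the cells were Raji, a Burkitt lymphoma line of B cells. The labels give cells of low GFP at 24, 48 and 72 h and cells of high GFP at the same times, with 3 replicates in each, and all 18 samples carry the genotype Smarca4+/+. The series concerns loss of SMARCA4, the motor subunit of BAF chromatin remodellers, by means of an auxin-inducible degron. What GFP reports is not stated in the labels, so the groups are named by GFP level alone. All cells come from 1 established tumour line, and nothing in the labels says that replicates were separate cultures.

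The 18 columns of counts were summed to 6 libraries, 1 for each GFP level and time. The reason was that the columns of a group differed by close to a constant multiple of counting noise. Their names carry a V number, V0 to V2, which was not matched to the labelled replicates. A weak pairing of columns by that number, described below, remained possible. Each library held 22908652 to 29790483 counts. The D number in a column name was read as the day, so every statement on time rests on that reading. Levels are given as CPM (counts scaled to library size), and a log2 change is GFP low over GFP high unless a time contrast is named. A peak was called where its p in edgeR's quasi-likelihood test, Benjamini-Hochberg adjusted over all 71318 peaks, was under 0.05. Markers at gene ends were read to check the cell line. The summed level of the 5 B-cell markers with a peak there (MS4A1, CD79A, CD79B, CD22 and PAX5) was 182 to 191 CPM in GFP low and 177 to 186 CPM in GFP high. The 4 T-cell markers, all with a peak, summed to 73.1 to 74.7 CPM in GFP low and 80.6 to 83.7 CPM in GFP high, most of it at CD3E. At CD8A the level was not lower in GFP low, at 10.6 to 12.1 CPM against 9.48 to 10.9 CPM in GFP high. Of the 4 myeloid markers 1 had a peak, ITGAM, at 8.35 to 11.0 CPM in GFP low and 11.9 to 13.5 CPM in GFP high, and neither of the 2 erythroid markers had one. The part of the T-cell and myeloid marker levels in the results below was not tested.

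ETS proteins share a winged-helix DNA-binding domain, the ETS domain, which reads a GGAA core, and the bases around that core differ between subfamilies. PU.1 and SPIB form 1 subfamily, favour a purine-rich flank before the core and bind composite sites together with IRF4 or IRF8. ETS1 and FLI1 are activators that occupy promoters and enhancers of lymphocytes, and their genes lie next to each other on chromosome 11. ETV6 (TEL) is a repressor with a pointed domain through which it polymerises, and ELF1 is an activator of lymphoid genes. In B cells PU.1 is known for its roles in early B-lineage commitment and at the immunoglobulin light chain enhancers, and SPIB for its role in B-cell receptor signalling.

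Promoter windows, from 250 bases before to 50 bases after an annotated start, were taken from a table of RefSeq sequences (GRCh38.p14), in which 5 windows matched SPIB, ETV6 and ELF1. Of these, 4 are shown, because they set windows that overlapped a peak beside 1 that did not. The window not shown, at another inner start of ELF1, overlapped no peak either and held 0 ETS cores. Letters run 5′ to 3′ on the strand of the gene, and capitals mark the ETS core, GGAA on the printed strand or TTCC where it lies on the other. The windows are ETV6 at chr12:11649424-11649723 (plus strand), the outer start of ELF1 at chr13:41061337-41061636 (minus strand), an inner start of ELF1 at chr13:40982850-40983149 (minus strand) and SPIB at chr19:50418688-50418987 (plus strand).
ETV6: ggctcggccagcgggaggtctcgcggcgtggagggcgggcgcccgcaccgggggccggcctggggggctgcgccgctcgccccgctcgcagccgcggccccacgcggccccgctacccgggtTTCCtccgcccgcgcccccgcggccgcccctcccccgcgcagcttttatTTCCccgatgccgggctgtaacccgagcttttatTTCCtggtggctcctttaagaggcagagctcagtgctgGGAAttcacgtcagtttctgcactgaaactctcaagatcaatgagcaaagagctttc
ELF1 outer start: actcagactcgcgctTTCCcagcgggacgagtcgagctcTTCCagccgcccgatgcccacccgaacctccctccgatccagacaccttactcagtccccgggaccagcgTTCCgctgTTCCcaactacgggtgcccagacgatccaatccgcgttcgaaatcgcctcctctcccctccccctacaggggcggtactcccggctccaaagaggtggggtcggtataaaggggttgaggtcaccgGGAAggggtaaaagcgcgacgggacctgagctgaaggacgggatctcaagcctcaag
ELF1 inner start: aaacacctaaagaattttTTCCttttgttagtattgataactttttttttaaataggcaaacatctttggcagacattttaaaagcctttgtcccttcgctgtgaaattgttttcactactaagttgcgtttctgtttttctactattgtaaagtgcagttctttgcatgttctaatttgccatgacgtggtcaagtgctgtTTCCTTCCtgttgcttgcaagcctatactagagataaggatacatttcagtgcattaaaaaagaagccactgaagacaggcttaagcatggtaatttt
SPIB: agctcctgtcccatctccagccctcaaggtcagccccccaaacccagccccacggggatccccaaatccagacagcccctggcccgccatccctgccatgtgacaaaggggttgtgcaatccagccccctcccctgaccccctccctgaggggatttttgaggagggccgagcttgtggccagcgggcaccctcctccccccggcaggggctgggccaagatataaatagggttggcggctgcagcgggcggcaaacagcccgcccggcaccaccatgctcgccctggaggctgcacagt
The ETV6 window held 4 cores and shared 185 bases with a peak, the outer ELF1 window held 5 cores and shared 260 bases with peaks, and the inner ELF1 window held 3 cores and lay within a peak over all its 300 bases. The SPIB window held 0 cores, and the nearest peak lay 3.09 kb away. The motif searched was GGAA on both strands, which 95.45% of 35116 RefSeq promoter windows of the same length held, with a median of 3 matches. The longer GAGGAA, searched on both strands and overlapping GGAA, was in the ETV6 window at 1 place and in 27.85% of all windows, and CCGGAA was in 0 of the 4 windows and in 17.25% of all. A match is a description of the letters, not of a bound factor.

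Across the 101 peaks, GFP low cells had 30 peaks called lower and 4 called higher than GFP high cells. That is 29.7% and 3.96% of them, beside 25.4% of all peaks called lower and 13.4% called higher. The share called lower lay close to that of all peaks, and the share called higher lay below it. All 30 and all 4 had the sign of their call at each of the 3 times. The median log2 change was -0.09 over the ETS peaks and 0.03 over all peaks. The 3 GFP low libraries lay wholly below the 3 GFP high libraries at 33 of the 101 peaks, against 25.1% of all peaks, and wholly above them at 15, against 20.8% of all peaks. Of the 101 peaks 2 were called and at least 2-fold lower, 1 in FLI1 and 1 in ETV6, against 4.0% of all peaks. The ETS peaks were more open than most, with a median of 16.5 CPM over the 6 libraries against 7.59 CPM over all peaks.

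**Figure D1:**
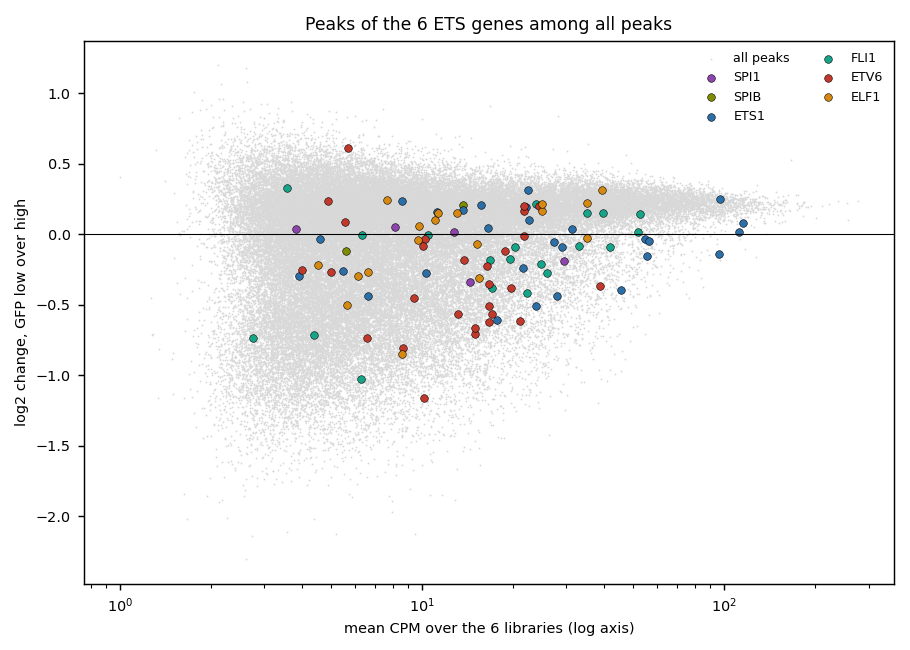
Each point is a peak, placed by its mean CPM over the 6 libraries (log axis) and its log2 change, GFP low over GFP high; grey points are all 71318 peaks and coloured points the 101 peaks of the 6 ETS genes. The ETS peaks run from 2.76 to 115 CPM and from -1.16 to 0.61 on the log2 scale, and those above 50 CPM lie between -0.16 and 0.25.

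Over all peaks the direction of a call went with the place of the peak, so the ETS peaks were also read by place. Gene bodies, that is peaks inside a gene and over 1 kb from any gene end, held 27 of the 30 lower peaks, among 79 peaks (34.2%), where 30.3% of all gene-body peaks were called lower. They also held 3 of the 4 higher peaks, where 7.98% of all gene-body peaks were called higher. Inner starts were not marked, so a peak at an inner start, such as that of ELF1, counts here as gene body. Intergenic ETS peaks numbered 14, of which 2 were lower and 0 higher, beside 30.6% of all intergenic peaks lower and 8.96% higher. At gene ends 8 ETS peaks lay within 1 kb, of which 1 was lower and 1 higher, beside 4.24% of all gene-end peaks lower and 34.4% higher. With so few peaks at ends these shares carry little weight.

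**Figure D2:**
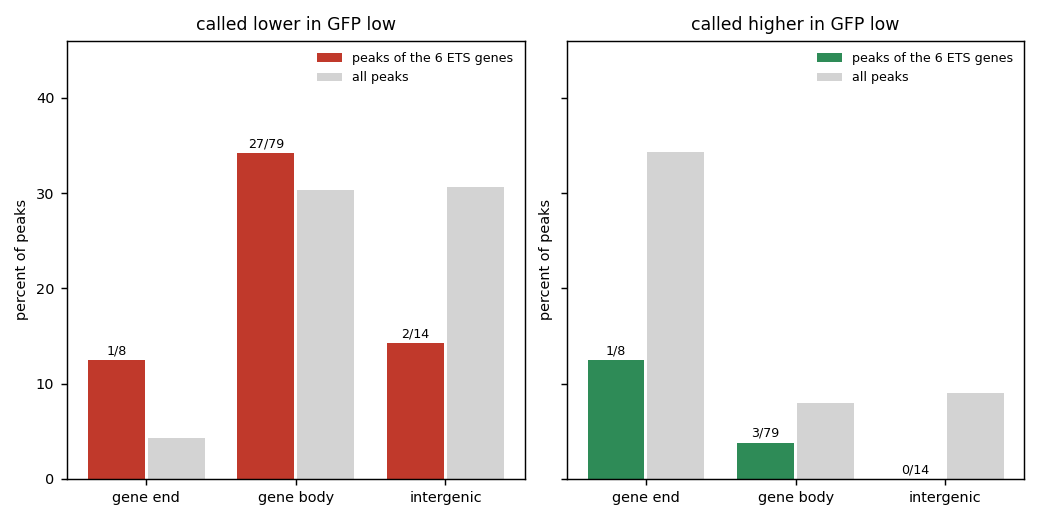
Bars give the percent of peaks called lower (left) and higher (right) in GFP low, for the ETS genes (coloured, with the number called over the number of peaks) and for all peaks (grey), at gene ends, in gene bodies and between genes. In gene bodies 27 of 79 ETS peaks were lower, against 30.3% of all.

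To give each locus 1 value, counts were summed over the peaks of every gene with a peak and tested the same way over 14725 genes, of which 14.8% were lower and 2.81% higher in GFP low, with a median log2 change of 0.02. Library sizes and scaling were computed anew on these sums, so summed CPM are not plain totals of the peak CPM given elsewhere. ETV6 and SPI1 were called lower, and 0 of the 6 ETS genes were called higher. The summed ETV6 level was 397, 417 and 378 CPM in GFP low and 506, 541 and 486 CPM in GFP high at 24, 48 and 72 h. All 3 GFP low values lay below all 3 GFP high values, and the log2 change was -0.36 ± 0.05 (SE; adjusted p = 0.000215, edgeR). The summed SPI1 level was 74.4, 67.4 and 69.3 CPM in GFP low and 84.5, 74.6 and 87.2 CPM in GFP high. Here too the groups did not overlap on the scale of the sums, by a margin of under 1 CPM. The log2 change was -0.22 ± 0.07 (adjusted p = 0.0343, edgeR). Added up with the scaling of the peak levels, the SPI1 groups overlapped. With peaks away from gene ends alone, an alternative chosen after seeing the data, the SPI1 change was 0.09 and not called. That setting also computed the scaling anew, so the move does not measure the omitted peaks alone. The call was also lost with DESeq2, without the V0 columns, without the 72 h libraries and with peaks inside the gene only.

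The other 4 loci did not pass the test. FLI1 summed to 452, 517 and 484 CPM in GFP low and 535, 538 and 525 CPM in GFP high, without overlap on the scale of the sums. Added up with the scaling of the peak levels, the FLI1 groups overlapped. The log2 change of the FLI1 sum was -0.14 ± 0.05 (adjusted p = 0.0815, edgeR). It was called lower without the 48 h libraries (-0.18), and with loess scaling the change was -0.03. ETS1 summed to 896, 1095 and 1137 CPM in GFP low and 1093, 1124 and 1148 CPM in GFP high. The GFP low library at 24 h stood below the other 5, and the groups overlapped (log2 change -0.11 ± 0.06, adjusted p = 0.182, edgeR), and with loess scaling the change was 0.07. ELF1 summed to 320, 307 and 312 CPM in GFP low and 311, 321 and 321 CPM in GFP high (-0.02 ± 0.05, adjusted p = 0.793). SPIB summed to 26.2, 19.2 and 19.6 CPM in GFP low and 19.6, 22.3 and 20.8 CPM in GFP high (0.04 ± 0.13, adjusted p = 0.865). At both of these the groups overlapped.

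**Figure D3:**
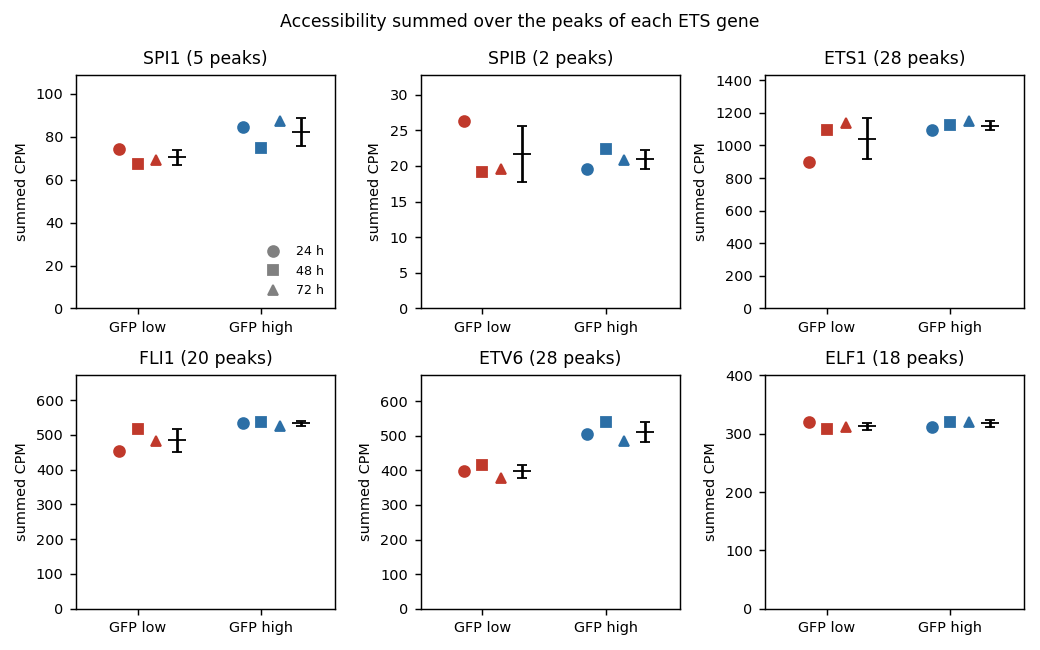
Summed CPM over the peaks of each gene, with scaling computed on the sums, for GFP low (red) and GFP high (blue). Symbols give 24, 48 and 72 h, and the bar beside each group its mean and SD over the 3 libraries. ETV6 averages 397 ± 19.2 CPM in GFP low and 511 ± 27.7 CPM in GFP high, and ELF1 and SPIB overlap between the groups.

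SPI1 codes for PU.1. Its 5 peaks ran from 3.82 to 29.5 CPM, and the 2 most open lay beside each other at the upper-coordinate end of the gene. The most open peak, at chr11:47378330-47378830, had 29.6, 25.1 and 28.0 CPM in GFP low and 30.9, 30.3 and 33.1 CPM in GFP high at 24, 48 and 72 h. The groups did not overlap, yet the peak did not pass the test (log2 change -0.19 ± 0.09, adjusted p = 0.108, edgeR). It was called lower with loess scaling and without the 24 h libraries. Its neighbour at chr11:47377822-47378322 had 13.1, 12.5 and 12.5 CPM in GFP low and 15.2, 15.4 and 17.8 CPM in GFP high. It was the 1 SPI1 peak called lower, at -0.34 ± 0.11 (adjusted p = 0.0208). The call was lost with DESeq2, without the V0 columns and without the 72 h libraries. The other gene-end peak, at chr11:47355125-47355625, averaged 3.77 ± 0.34 CPM in GFP low and 3.87 ± 1.68 CPM in GFP high (SD over times, n = 3 each). A gene-body peak at chr11:47373813-47374313 averaged 8.34 ± 1.77 CPM in GFP low and 7.95 ± 0.75 CPM in GFP high. At both the groups overlapped.

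SPIB codes for the PU.1 relative of B cells. Both of its peaks lay at the end opposite its annotated start, which no peak of the table used here overlapped. The larger, at chr19:50431484-50431984, had 18.5, 12.5 and 13.1 CPM in GFP low and 11.0, 14.2 and 12.6 CPM in GFP high. The GFP low library at 24 h was the highest of the 6 and the GFP high library at 24 h the lowest, and at 48 h the order was turned (log2 change 0.21 ± 0.14, adjusted p = 0.241, edgeR). Without the 24 h libraries the change was -0.05, and without the 48 h libraries the peak was called at 0.41. The smaller, at chr19:50430864-50431364, averaged 5.37 ± 0.68 CPM in GFP low and 5.80 ± 0.06 CPM in GFP high (-0.12 ± 0.15, adjusted p = 0.546).

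ETV6 had the most lower peaks of the 6 genes, 14 of 28, with 1 higher. In its gene body 14 of 25 peaks (56%) were lower, beside 30.3% of all gene-body peaks, 26.3% of those of ETS1, 27.8% of FLI1, 20% of ELF1 and 0 of 2 of SPI1, and these differences were not tested. The lower peaks lay deep in the gene. Of the 6 peaks from 27.5 kb before to 3.63 kb after the annotated start, 0 were called, with a median log2 change of 0.13. Of the 9 peaks from 72.8 to 97.8 kb after the start, 5 were lower and 1 higher, and of the 13 from 100 to 187 kb, 9 were lower and 0 higher. These bounds were set after the positions were seen. The 2 peaks within 1 kb of the start, the first of which overlaps the ETV6 window printed above, averaged 26.1 ± 0.84 and 22.9 ± 1.19 CPM in GFP low and 22.7 ± 1.88 and 20.5 ± 1.01 CPM in GFP high. At both the groups did not overlap, with GFP low the higher, and neither passed the test (log2 changes 0.20 and 0.16, adjusted p = 0.122 and 0.22, edgeR).

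The ETV6 peak with the largest change, at chr12:11807414-11807914, had 4.57, 8.07 and 6.25 CPM in GFP low and 14.3, 16.5 and 11.2 CPM in GFP high. Every GFP low library lay below every GFP high library, and the log2 change was -1.16 ± 0.14 (adjusted p = 1.33e-06, edgeR). At chr12:11730772-11731272 the levels were 12.3, 10.7 and 11.0 CPM in GFP low and 18.3, 20.9 and 16.7 CPM in GFP high (-0.71 ± 0.12, adjusted p = 5.63e-05). The groups were apart there too, and again at chr12:11780715-11781215, with 11.9, 12.4 and 10.5 CPM in GFP low and 18.6, 19.4 and 17.2 CPM in GFP high (-0.67 ± 0.11, adjusted p = 6.32e-05). The most open ETV6 peak, 187 kb into the gene at chr12:11836161-11836661, had 34.6, 35.3 and 31.3 CPM in GFP low and 44.0, 46.3 and 40.4 CPM in GFP high (-0.37 ± 0.08, adjusted p = 0.00102). The 14 lower peaks spanned -1.16 to -0.36 on the log2 scale. The higher peak, at chr12:11734025-11734525, lay between lower ones and was picked out after its value was seen. It had 6.22, 7.40 and 6.93 CPM in GFP low and 3.57, 4.30 and 5.66 CPM in GFP high (0.61 ± 0.16, adjusted p = 0.00345), without overlap.

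**Figure D4:**
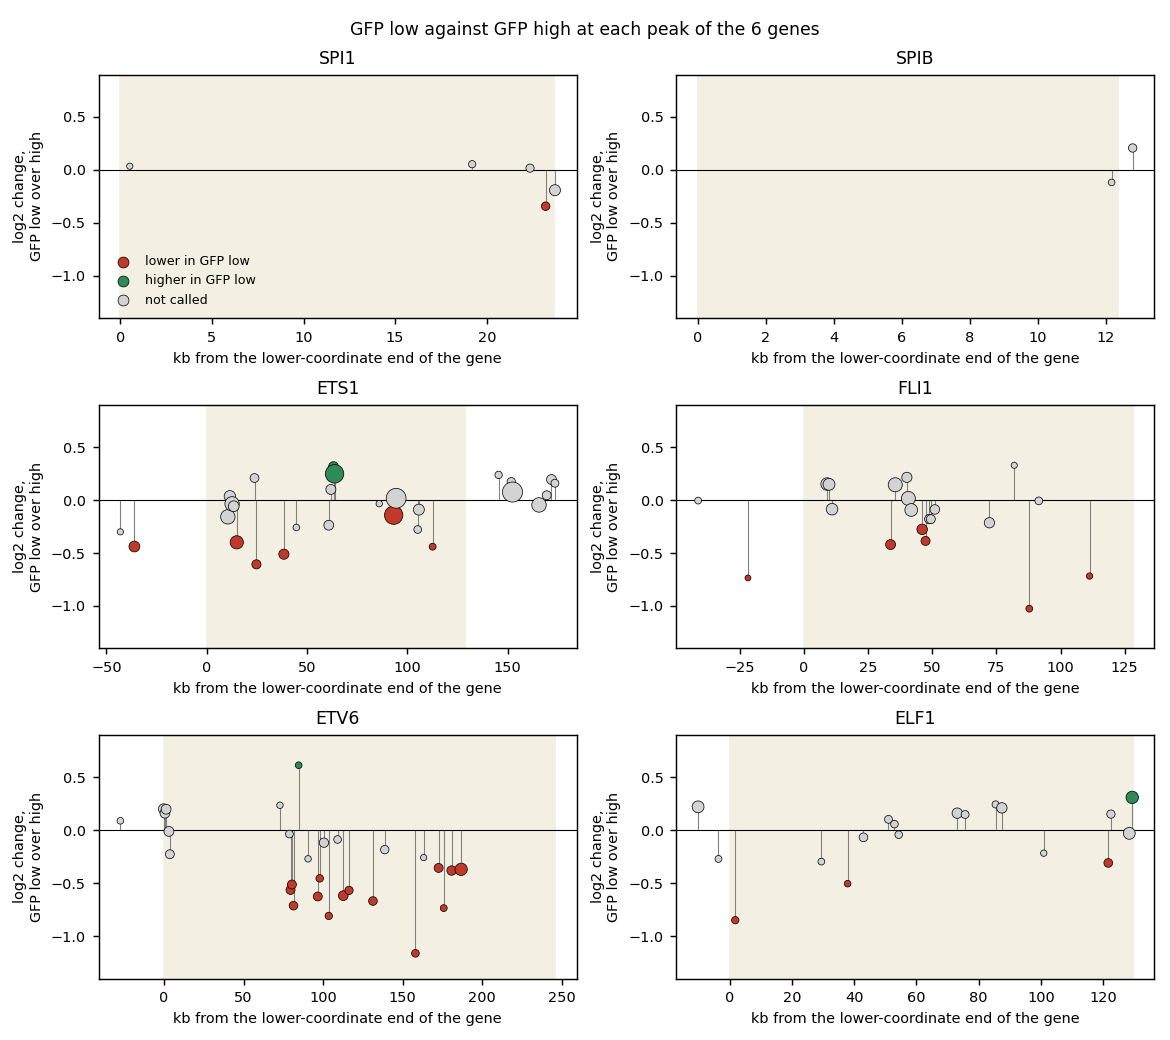
Each point is a peak, placed by its distance from the lower-coordinate end of the gene (shaded) and its log2 change, GFP low over GFP high; area grows with mean CPM, red is called lower, green higher and grey not called. ETV6 shows 14 red points, all 79.5 kb or more from its left-hand end, and SPIB has 2 grey points at its right-hand end.

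ETS1 gave the strongest signal of the 6 genes, with peaks up to 115 CPM, and 0 of its 28 peaks lay within 1 kb of an end of the annotated span. It had 6 peaks called lower, at -0.61 to -0.14 on the log2 scale, and 2 called higher, or 21.4% and 7.14% beside 25.4% and 13.4% of all peaks. The most open, between the genes at chr11:128610880-128611380, had 105, 128 and 123 CPM in GFP low and 114, 112 and 110 CPM in GFP high, and it was not called (0.08 ± 0.06, adjusted p = 0.294, edgeR). With loess scaling, which follows abundance, its change turned to a called -0.17, and without the 24 h libraries it was called at 0.19. The 3 peaks with the smallest p lay in the part of the gene nearer its lower-coordinate end. The peak at chr11:128483296-128483796 had 13.3, 14.8 and 13.8 CPM in GFP low and 22.5, 22.9 and 18.6 CPM in GFP high (-0.61 ± 0.11, adjusted p = 0.000186). The groups did not overlap. At chr11:128496963-128497463 the levels were 23.1, 19.0 and 16.9 CPM in GFP low and 30.5, 27.1 and 26.0 CPM in GFP high (-0.51 ± 0.10, adjusted p = 0.000459), and at chr11:128473508-128474008 they were 34.8, 44.4 and 39.2 CPM in GFP low and 49.8, 56.1 and 49.8 CPM in GFP high (-0.40 ± 0.08, adjusted p = 0.000268). Both pairs of groups were apart.

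The 2 higher ETS1 peaks, picked out after their values were seen, lay side by side in the gene. Inner starts were not marked and no promoter window matched ETS1, so whether these peaks lie at a start was not determined. The larger, at chr11:128522222-128522722, had 100, 106 and 109 CPM in GFP low and 86.2, 91.4 and 87.5 CPM in GFP high (0.25 ± 0.05, adjusted p = 0.000914, edgeR). With loess scaling its change was 0.02 and not called, and without the 72 h libraries the calls of both higher peaks were lost. The smaller, at chr11:128521710-128522210, had 24.7, 24.5 and 25.1 CPM in GFP low and 18.8, 20.2 and 20.7 CPM in GFP high (0.32 ± 0.10, adjusted p = 0.019). At both, all GFP low libraries lay above all GFP high libraries. Between ETS1 and FLI1 lay 9 peaks, 7 given to ETS1 and 2 to FLI1, of which 1 was lower and 0 higher. Of all intergenic peaks 30.6% were lower and 8.96% higher.

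FLI1 had 6 peaks called lower, at -1.03 to -0.28 on the log2 scale, and 0 called higher of 20. The share lower, 30%, lay close to the 25.4% of all peaks, and 13.4% of all peaks were called higher. The largest change was at chr11:128772703-128773203, with 3.51, 4.02 and 4.89 CPM in GFP low and 8.94, 8.64 and 7.67 CPM in GFP high. The groups stood apart, and the log2 change was -1.03 ± 0.15 (adjusted p = 1.98e-05, edgeR). A weak peak at chr11:128796208-128796708 had 2.78, 3.73 and 3.46 CPM in GFP low and 6.15, 5.08 and 5.22 CPM in GFP high (-0.72 ± 0.18, adjusted p = 0.00293). A stronger one at chr11:128718613-128719113 had 16.8, 18.5 and 22.0 CPM in GFP low and 23.9, 26.5 and 26.0 CPM in GFP high (-0.42 ± 0.11, adjusted p = 0.00339). Neither overlapped. The most open FLI1 peak, at chr11:128720440-128720940, went the other way without passing the test, with 51.8, 57.5 and 56.0 CPM in GFP low and 47.3, 51.1 and 51.1 CPM in GFP high (0.14 ± 0.07, adjusted p = 0.101). With loess scaling its change was -0.02.

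ELF1, an activator of lymphoid genes, had 3 lower peaks and 1 higher of 18, or 16.7% and 5.56% beside 25.4% and 13.4% of all peaks. The higher peak was its most open and lay 0.14 kb from its outer start, where it shares bases with the ELF1 outer window printed above. At chr13:41060996-41061496 the levels were 45.5, 43.0 and 42.8 CPM in GFP low and 31.8, 36.7 and 37.5 CPM in GFP high. Every GFP low library lay above every GFP high library (0.31 ± 0.09, adjusted p = 0.00621, edgeR), and the call was lost with loess scaling. The peak over the inner start was not called, with a log2 change of 0.10. The largest fall was near the other end of the gene, at chr13:40933436-40933936, with 4.50, 6.40 and 7.50 CPM in GFP low and 8.99, 11.1 and 12.9 CPM in GFP high (-0.85 ± 0.13, adjusted p = 2.16e-05). The groups did not overlap, although both were highest at 72 h. At chr13:40969534-40970034 the levels were 5.12, 4.62 and 4.21 CPM in GFP low and 7.09, 6.07 and 6.63 CPM in GFP high (-0.50 ± 0.15, adjusted p = 0.0105, edgeR). That call was lost with DESeq2, without the V0 columns and without the 72 h libraries.

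The GFP difference at a single time rests on 1 library a side, so it has no replicate check and no test. At least 2-fold lower in GFP low were 4 of the 101 ETS peaks at 24 h, 3 at 48 h and 0 at 72 h, beside 8.16%, 3.85% and 3.83% of all peaks. These were 5 peaks, 3 of FLI1 and 2 of ETV6. At least 2-fold higher were 0 ETS peaks at any of the 3 times. The share of all peaks at least 2-fold higher is not given here, so that 0 carries no comparison. The ETV6 peak at chr12:11807414-11807914 differed by -1.63 on the log2 scale at 24 h, -1.03 at 48 h and -0.84 at 72 h, with 95% counting intervals of -2.03 to -1.23, -1.33 to -0.72 and -1.20 to -0.48. The FLI1 peak at chr11:128772703-128773203 differed by -1.33 at 24 h, -1.09 at 48 h and -0.64 at 72 h. Both were below 0 at every time, with the smallest difference at 72 h. Whether the GFP difference changed in a straight line with time was tested as a trend. By edgeR 0 ETS peaks and 0.0% of all peaks were called. At an unadjusted p under 0.05 were 7 ETS peaks and 3411 of all peaks (4.78%), and DESeq2 called 0 ETS peaks.

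Over both GFP levels, 7 of the 101 ETS peaks were higher at 72 h than at 24 h, beside 0.882% of all peaks, and 0 were lower, beside 1.87% of all. Of these 7 peaks 6 were in or near ETS1 and 1 was in ELF1. The ETS peaks were more open than most (median 16.5 against 7.59 CPM), and shares among peaks of like level were not compared. The ETS1 peak at chr11:128551676-128552176 had 76.7, 85.9 and 112 CPM in GFP low and 91.1, 96.7 and 113 CPM in GFP high at 24, 48 and 72 h. It was lowest at 24 h and highest at 72 h in both GFP levels, and the log2 change from 24 h was 0.43 ± 0.07 (adjusted p = 0.00138, edgeR). It was also called lower in GFP low, at -0.14 ± 0.06 (adjusted p = 0.0491), a call that was lost under 7 of 13 alternatives, among them DESeq2 and each setting without 1 time. The peak beside it, at chr11:128552916-128553416, had 92.5, 110 and 137 CPM in GFP low and 103, 107 and 122 CPM in GFP high (0.41 ± 0.07 for 72 h against 24 h, adjusted p = 0.00195). Its GFP difference was 0.02 and turned to a called -0.22 with loess scaling.

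The other 4 ETS1 peaks that were higher at 72 h had time changes of 0.40 to 0.62 on the log2 scale, and the ELF1 peak, the one at chr13:40933436-40933936 described above, 0.62 ± 0.16 (adjusted p = 0.0338, edgeR). Within GFP low alone the 7 changes were 0.55 to 0.75, and within GFP high alone 0.21 to 0.55, each from 1 library a time with no test. The change was larger in GFP low at all 7 peaks, but the trend test called 0 of them. DESeq2 called 4 of the 7, and leaving out the V1 columns left 4. Over all peaks 629 were higher at 72 h in the main fit, 160 with DESeq2 and 446 without the V1 columns. The ELF1 call was lost with DESeq2 and without the columns of any 1 V number. The steps from 24 to 48 h and from 48 to 72 h gave 0 calls each among the ETS peaks. Over all 71318 peaks the earlier step gave 0 lower and 0 higher, and the later step 3 lower and 4 higher.

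**Figure D5:**
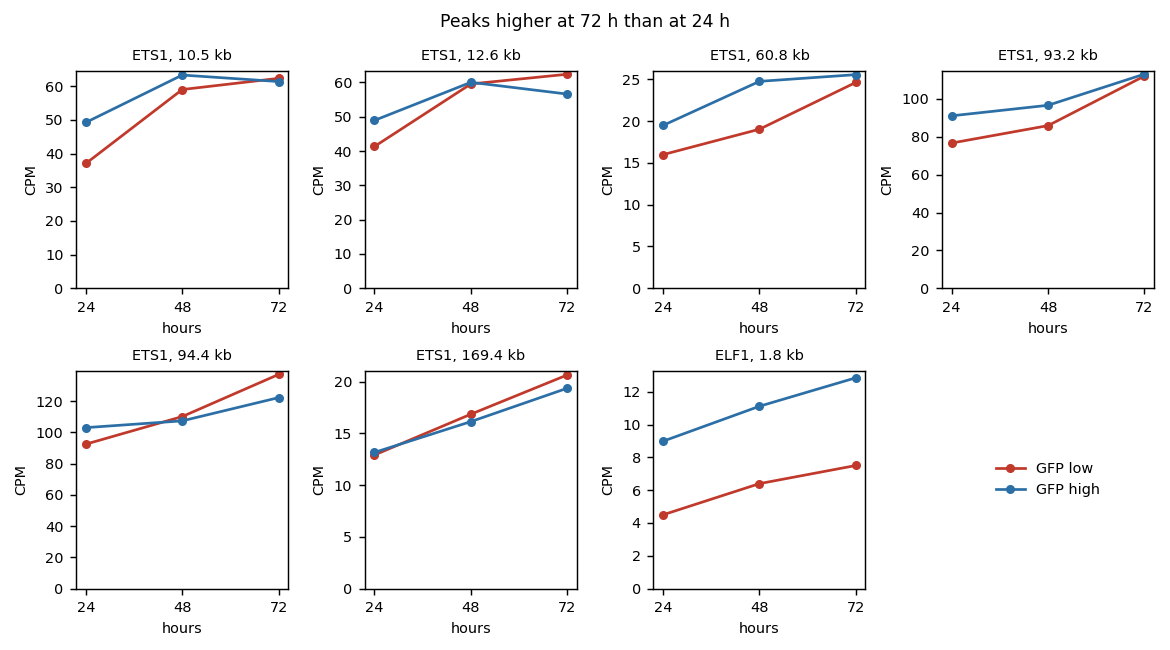
CPM at 24, 48 and 72 h in GFP low (red) and GFP high (blue) for the 7 peaks higher at 72 h than at 24 h; titles give the gene and the distance from its lower-coordinate end. Both lines end higher than they start in each panel, and the ELF1 peak keeps GFP low below GFP high at each time.

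For each gene, the 2 genes whose summed levels followed it most closely were found over the 6 libraries among 4126 genes with at least 5 peaks, by the root mean square distance of centred log2 CPM. ELF1 was closest to KDM2B (0.010) and IGF2BP3 (0.014), and FLI1 to ZFAT (0.015) and KLF12 (0.019). ETS1 was closest to TXLNB (0.025) and MME (0.026), and SPI1 to IFFO2 (0.029) and PTPRR (0.031). ETV6 was closest to ASIC2 (0.045) and IL19 (0.047), and among the 2 closest to SPIB was ARHGEF1 (0.058). The distances are a description.

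Other genes of the family and of its setting were read from lists. Of the other 21 ETS family genes 20 had a peak, SPDEF being the exception, and of their 72 peaks 19 were lower (26.4%) and 9 higher (12.5%) in GFP low, close to the 25.4% and 13.4% of all peaks, with a median log2 change of -0.03. ELK3 had a lower peak 3.78 kb outside the gene at chr12:96190348-96190848, with 5.82 ± 0.78 CPM in GFP low and 12.1 ± 1.09 CPM in GFP high (-1.06 ± 0.13, adjusted p = 1.51e-06, edgeR), and ELF2 one in its body (-0.999 ± 0.12). Peaks at the ends of ELK4 and GABPA were higher, that of ELK4 with 46.1 ± 5.76 CPM in GFP low and 34.8 ± 4.08 CPM in GFP high (log2 changes 0.40 ± 0.10 and 0.27 ± 0.06). Partner factors of ETS proteins, IRF4, IRF8, PAX5, RUNX1, TCF3 and EBF1, all had peaks. Of their 93 peaks 29 were lower (31.2%, beside 25.4% of all peaks and 30.3% of all gene-body peaks). Called higher were 0, beside 13.4% of all peaks and 7.98% of all gene-body peaks, and the median log2 change was -0.09. PAX5, the factor that holds B-cell identity, had a lower peak inside the gene at 7.73 ± 1.14 CPM in GFP low and 16.6 ± 1.67 CPM in GFP high (-1.10 ± 0.12), and RUNX1 one at -1.41 ± 0.22. Of 11 genes listed as ETS targets in B cells 9 had peaks, IL7R and FCGR2B having none, and of 46 peaks 12 were lower (26.1%, close to the 25.4% of all peaks) and 3 higher (6.52%, beside 13.4%), with a median of 0.00. BTK and BLNK, which carry B-cell receptor signals, each had a lower peak (-1.10 ± 0.17 and -1.23 ± 0.19), and CIITA and NFKB1 a higher one (0.31 ± 0.10 and 0.32 ± 0.11).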

How the data were processed

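The authors deposited raw read counts in 501 bp peaks on hg38 as 1 table of 18 columns. Their tools were FastQC, BWA, deepTools and R 4.2.1, per the submitters' processing notes. How peaks were called, whether duplicates were removed and whether reads were shifted to the transposase cut is not given in the sources used here, and retained duplicates would add noise to a count. Columns of 1 group differed by 1.78 to 1.81 times the counting variance in 18 pairs, with no rise over abundance, and were summed to 1 library. V numbers in the column names were not matched to the labelled replicates.

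Peaks were assigned to 19947 RefSeq protein-coding genes, after 105 readthrough genes were left out. The table gives 1 span a gene, so exons, introns and inner starts were not marked. Tests used edgeR 4.0.16 (R 4.3.3; TMM, filterByExpr, robust quasi-likelihood, model of time and GFP level, Benjamini-Hochberg at 0.05), and the filter removed 0 peaks. The fit had 2 residual degrees of freedom and borrowed a median of 22.6 from other peaks. An SD over times includes change with time, and p-values set the GFP difference against its spread between times, which may be technical. Log2 CPM for single times used a prior count of 2, with 95% intervals whose counting variance was multiplied by 1.80. Intervals cover counting error only. Scripts were tested on simulated data. Alternatives included DESeq2 1.42.0, other scalings, filters and columns left out. Per gene, the text names gene-end peaks, the 3 peaks with the smallest p, the most open peak, 2-fold calls and up to 2 peaks called for time; other named peaks are marked. The genes and lists were chosen with earlier results of these data known. A marker gene and a gene close to SPIB are not reported here.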

Additional observations from a re-analysis of the deposited data

How the results depend on the processing

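The count of ETS peaks lower in GFP low was 30 and ranged from 21 to 37 over the alternatives, and all 30 kept their sign in each. It was 22 with DESeq2 and 37 with loess scaling. Of all 71318 peaks 18125 were lower in the main fit, 12810 with DESeq2 and 15633 with loess scaling. With loess scaling the ETS count thus rose while that of all peaks fell. The count higher was 4, and it became 2 with loess scaling, 7 without the 24 h libraries and 2 without the 72 h libraries. Over all peaks the count higher was 9570, and in the same order 9415, 9240 and 2503. Of the 6 gene sums 2 were lower, and 1 was lower with DESeq2, without the 72 h libraries, with peaks inside the gene only and, chosen after seeing the data, with peaks away from gene ends only, where SPI1 turned to 0.086 and FLI1 was -0.011. Without the 48 h libraries 3 were lower. Leaving out the columns of 1 V number gave 1 to 2. Of all 14725 gene sums 2175 were lower, 1819 with DESeq2, 1176 without the 72 h libraries and 2491 without the 48 h libraries. With columns left out 1947 to 2080 were lower. With peaks inside the gene only 2095 of 11166 were lower, and with peaks away from gene ends only 2542 of 11953. Of the peaks higher at 72 h, 7 in number, DESeq2 called 4, and leaving out columns gave 4 to 7. Over all peaks 629 were higher, 160 with DESeq2 and 424 to 467 with columns left out. The steps from 24 to 48 h and from 48 to 72 h gave 0 and 0 ETS peaks, beside 0 and 4 of all peaks higher. The ETS1 peak at chr11:128471156-128471656 was at -0.0056 in the later step. At single times a fall of at least 2-fold was seen at 4 peaks at 24 h (2 with loess scaling), 3 at 48 h (1 to 5 with columns left out) and 0 at 72 h (0 to 1, and 4 with V numbers read as time). In these results the cause was not tested.

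The 18 columns taken as separate libraries gave 20 higher peaks without a block and 19 with V number as a block, and 37 lower with either. Of all 71318 peaks 19287 were then higher and 20953 lower without a block, and 19080 and 20867 with it. Gene sums lower were then 4, peaks higher at 72 h 15 and lower 5, and peaks with a rising trend 3, with or without the block. Without the block 3696 of all 14725 gene sums were lower. Over all peaks 4293 were higher at 72 h, 5228 lower, and 305 had a rising trend. Deviations of same-numbered columns correlated at 0.02 at most, so the columns were not treated as paired, and 14 of 18 columns correlated best with their own number, a hint from the data that leaves a weak pairing possible. Depth limits weak peaks most, since the lowest ETS peak averaged 2.76 CPM.

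Named values that changed sign were these, 2 of them called after the change. With loess scaling the ETS1 peaks at chr11:128610880-128611380 and chr11:128552916-128553416 turned to -0.17 and -0.22, both called, the most open FLI1 peak to -0.018, and the sums of ETS1 and ELF1 to 0.069 and 0.047. With peaks away from gene ends only, the sums of ETS1 and ELF1 were 0.015 and 0.065. ETS1 and FLI1 have no gene-end peak, so that setting left their counts unchanged, and their sums moved through the scaling computed anew. With peaks inside the gene only, ELF1 was 0.014 and SPIB -0.14. Without the 24 h libraries the SPIB sum was -0.16, its larger peak -0.052 and the SPI1 peak at chr11:47373813-47374313 -0.094. Without the 48 h libraries the weakest SPI1 peak was -0.30, and without the 72 h libraries the ETS1 peak at chr11:128552916-128553416 was -0.059. With columns left out the weakest SPI1 peak ranged from -0.080 to 0.26, the other SPI1 peak from -0.058 to 0.12 and that ETS1 peak from -0.0073 to 0.042.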

Other observations

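Some open regions near these genes were assigned to other genes by the rule, and those within 20 kb were read after the results were seen. At the start that ELF1 shares with WBP4, the peak at chr13:41061537-41062037 had 60.3, 61.5 and 63.9 CPM in GFP low and 44.2, 49.8 and 50.3 CPM in GFP high at 24, 48 and 72 h. The groups did not overlap, and the log2 change was 0.37 ± 0.07 (adjusted p = 0.000229, edgeR). The peak 16.3 kb outside SPI1, at chr11:47394615-47395115, had 10.7, 11.1 and 11.9 CPM in GFP low and 12.0, 12.6 and 12.5 CPM in GFP high. It was assigned to SLC39A13 and did not pass the test (-0.14 ± 0.12, adjusted p = 0.334). The peak nearest the SPIB start, at chr19:50415599-50416099, was assigned to POLD1 and was above 14 CPM in each library (0.18 ± 0.11, adjusted p = 0.186).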
